A study of Mus musculus with 4 samples.

Results

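Transcripts of ephrin-B ligands and their Eph receptors were examined in F9 cells, an undifferentiated cell line from a mouse embryonal carcinoma. The family comprised the ligand genes Efnb1, Efnb2 and Efnb3, the receptor genes Ephb1, Ephb2, Ephb3, Ephb4 and Ephb6, and Epha4, a receptor of the A class that also binds ephrin-B ligands. Every probe set that the platform annotation listed with exactly 1 of these 9 symbols was taken, which gave 17 probe sets for 8 genes out of 45037 probe sets in all. Ephb2 was not analysed here, as none was listed with it. The family was chosen by values of the comparison described here, since the rise of Efnb2 on these arrays was already known. The levels and changes of its members are therefore given as a description. For them, whether a probe set was called only says on which side of the threshold the whole-table fit placed it, and it supports nothing about the family.

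Cultures of 2 kinds were compared on 4 Affymetrix Mouse Genome 430 2.0 arrays. Both were F9 cells infected with pLKO.1 lentivirus and selected with puromycin as stable lines. In the shPhf19 group (2 arrays) the virus carried a short hairpin RNA against Phf19, and in the shVector group (2 arrays) it was the vector control. The labels name the arrays of a group biological replicates, and the sources used here do not give the number of hairpin sequences or whether replicates came from separate infections, so every error below measures the spread between these arrays.

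Ephrin-B ligands span the membrane, and Eph receptors are receptor tyrosine kinases, so the pair signals only where cells touch. Signals run forward into the cell with the receptor and in reverse through the cytoplasmic tail of the ephrin-B ligand. In embryos this system sorts cells, forms tissue boundaries, guides axons and shapes vessels, with ephrin-B2 marking arteries and EphB4 marking veins. Phf19 encodes a Polycomb-like subunit of Polycomb repressive complex 2 (PRC2), which methylates histone H3 at lysine 27 and in mammals is found mostly at promoters rich in CG dinucleotides.

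Values are log2 expression as deposited, and a change is the mean of the shPhf19 arrays minus the mean of the shVector arrays on that scale. A probe set was called when its adjusted p was under 0.05 in limma's fit over all 45037 probe sets with Benjamini-Hochberg adjustment. Array medians lay between 5.75 and 5.76, and arrays correlated at 0.9974 within shVector, 0.9984 within shPhf19 and 0.9961 to 0.997 between groups (Pearson's r over probe sets). The 1427920_at probe set of Phf19 read 6.07 and 6.14 in shVector and 5.08 and 5.17 in shPhf19, a change of -0.98 ± 0.10 (SE; limma adjusted p = 0.0108). The 1431857_at probe set of Phf19 read 6.32 and 6.11 against 6.05 and 6.26, a change of -0.06 ± 0.12 that was not called, so the knockdown was seen by 1 of 2 probe sets. Markers of embryonal carcinoma cells did not pass the test in any of 10 genes. Their mean log2 level was 12.4 on each of the 4 arrays, with Nanog at -0.26 ± 0.05 (limma adjusted p = 0.0923) and Fgf4 at 0.19 ± 0.06 (limma adjusted p = 0.24).

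Promoters are shown for 3 members because they place the gene that rose, Efnb2, beside a receptor gene with nearly as many CG dinucleotides, Ephb6, and a fellow ligand gene with fewer, Efnb1. Each window holds 300 bases, from 250 before to 50 after a RefSeq transcript start, read on the gene's strand from RefSeq's GRCm38.p6 table. Capitals mark CG dinucleotides. The windows lie at chr8:8661193-8661492 on the minus strand for Efnb2, chr6:41605261-41605560 on the plus strand for Ephb6 and chrX:99135811-99136110 on the plus strand for Efnb1. The Ephb6 window lies inside the annotated gene, which starts at chr6:41603834, whereas those of Efnb2 and Efnb1 span the start of the gene.
Efnb2: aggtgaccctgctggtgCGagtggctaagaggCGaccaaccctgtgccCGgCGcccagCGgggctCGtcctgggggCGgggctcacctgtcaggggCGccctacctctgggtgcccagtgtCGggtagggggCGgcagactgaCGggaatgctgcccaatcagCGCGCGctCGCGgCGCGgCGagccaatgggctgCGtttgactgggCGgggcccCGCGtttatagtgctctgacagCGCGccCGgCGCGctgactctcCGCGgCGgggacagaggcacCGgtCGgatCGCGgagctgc
Ephb6: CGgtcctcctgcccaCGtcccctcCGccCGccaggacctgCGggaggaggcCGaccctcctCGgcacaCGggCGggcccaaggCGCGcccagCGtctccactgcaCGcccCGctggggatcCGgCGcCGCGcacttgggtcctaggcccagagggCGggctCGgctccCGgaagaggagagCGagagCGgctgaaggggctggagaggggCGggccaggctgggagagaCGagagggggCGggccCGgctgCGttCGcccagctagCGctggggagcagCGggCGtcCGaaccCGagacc
Efnb1: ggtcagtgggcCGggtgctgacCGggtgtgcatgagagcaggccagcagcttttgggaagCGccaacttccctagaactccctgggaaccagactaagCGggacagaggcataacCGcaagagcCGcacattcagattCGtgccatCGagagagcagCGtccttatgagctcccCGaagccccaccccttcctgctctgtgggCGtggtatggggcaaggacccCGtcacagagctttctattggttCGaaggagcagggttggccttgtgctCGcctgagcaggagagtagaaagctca

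The Efnb2 window held 35 CG dinucleotides, more than 90.9% of 21263 promoter windows of protein-coding genes, whose median was 13. Ephb6 held 34, Ephb2 24, Ephb3 23 and Epha4 17, while Efnb1, Ephb1 and Ephb4 held 14 each. The Efnb3 promoter was not analysed here, so 8 of 9 members were matched. Relative to its base composition, the CG count of Efnb2 was 0.904 of that expected from the numbers of C and G, the highest of the 8, against 0.781 for Ephb6 and 0.484 for Ephb4, the lowest.

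**Figure D1:**
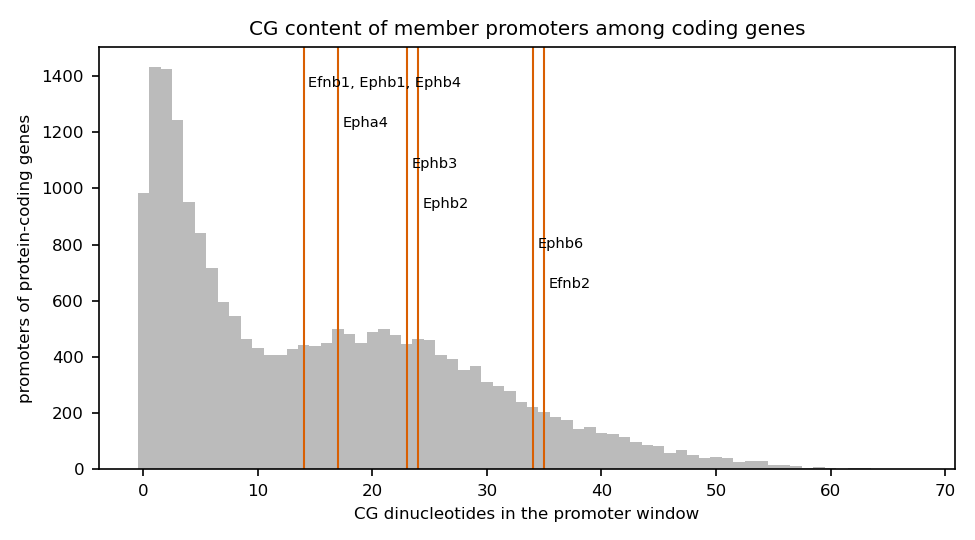
Number of CG dinucleotides per 300-base promoter window (x axis) against the number of windows of protein-coding genes (y axis, grey bars, 21263 windows), with the 8 matched members as orange lines. Efnb2 (35) and Ephb6 (34) lie in the upper tail, and Efnb1, Ephb1 and Ephb4 (14 each) lie next to the median of 13.

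Simple promoter motifs were counted on both strands, as letters only. The shares given for all windows were not limited to protein-coding genes, unlike the 21263 windows of the CG counts, so they are not a matched background. The GC box GGGCGG occurred 3 times in the Efnb2 window and was present in 5 of the 8 members, against 35.7% of all 32851 windows. The CCAAT box occurred 2 times in Efnb2 and in 6 of the 8 members, against 37.4% of all windows. The TATA box letters TATAAA were found in Efnb2 alone among the 8, on the strand opposite the gene, against 13.6% of all windows. None of the motifs is part of another, and a GC box contains a CG dinucleotide. Their use in F9 cells was not tested.

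Among the ligands, Efnb2 was the member that stood apart. Its brighter probe sets showed about 2.8-fold and 2.5-fold higher signal in shPhf19 cells, while its dimmer ones showed no such rise. Efnb1 lay slightly higher and Efnb3 at nearly the same level, both without a call. In RNA from whole cultures, more cells with a transcript and more transcript per cell cannot be told apart.

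Efnb2 encodes ephrin-B2, a ligand of most EphB receptors and of EphA4. Its probe set 1419639_at read 8.44 and 8.69 in shVector and 10.08 and 10.04 in shPhf19. The lower shPhf19 array was 1.35 above the higher shVector array, whereas within groups the arrays were 0.25 (shVector) and 0.04 (shPhf19) apart. The change was 1.49 ± 0.10 (SE), or 2.81-fold (95% interval 2.39 to 3.31). Probe set 1419638_at read 7.05 and 7.30 in shVector and 8.59 and 8.42 in shPhf19. The groups were again separate, by 1.12, and the change was 1.33 ± 0.12 (2.52-fold, 95% interval 2.08 to 3.06). In both probe sets shVector replicate 2 was above replicate 1, by 0.25 each.

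The remaining Efnb2 probe sets carried the same accession, U30244, and did not show the rise. Probe set 1449549_at read 5.07 and 5.16 in shVector and 4.99 and 5.17 in shPhf19, so the groups overlapped. Its change was -0.03 ± 0.11, and its 95% interval (-0.29 to 0.22) excludes the rise of the brighter probe sets. Probe set 1449548_at read 4.86 and 4.71 in shVector and 4.92 and 5.04 in shPhf19. These groups were separate by 0.06, against 0.15 within shVector, and the change was 0.20 ± 0.11. Both lay below the array median on all 4 arrays, and the table has no detection calls, so their low values may be background. Positions of the probes along the transcript were not analysed here. Averaged over its 4 probe sets, Efnb2 changed by 0.75 ± 0.07, less than either of the brighter ones alone.

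Efnb1 encodes ephrin-B1, which is needed for craniofacial and neural crest development. Probe set 1418286_a_at read 8.83 and 8.63 in shVector and 8.97 and 9.05 in shPhf19. Probe set 1418285_at read 7.87 and 7.64 in shVector and 7.99 and 8.19 in shPhf19. In both, the groups were separate but by 0.13 and 0.12, less than the 0.20 and 0.23 between the shVector arrays. Their changes were 0.27 ± 0.09 and 0.33 ± 0.12, and neither was called. Probe set 1451591_a_at read 6.71 and 6.60 in shVector and 6.71 and 6.80 in shPhf19, which overlap, with a change of 0.10 ± 0.09. The 1418286_a_at change of Efnb1 was 0.18 without shVector replicate 2 and 0.37 without shVector replicate 1.

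Efnb3, which encodes ephrin-B3, a repellent cue of the midline of the nervous system, was measured by 1 probe set. It read 6.80 and 6.62 in shVector and 6.76 and 6.82 in shPhf19, and both shPhf19 values fell around the higher shVector value. The change was 0.08 ± 0.10, with a 95% interval of -0.16 to 0.32.

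**Figure D2:**
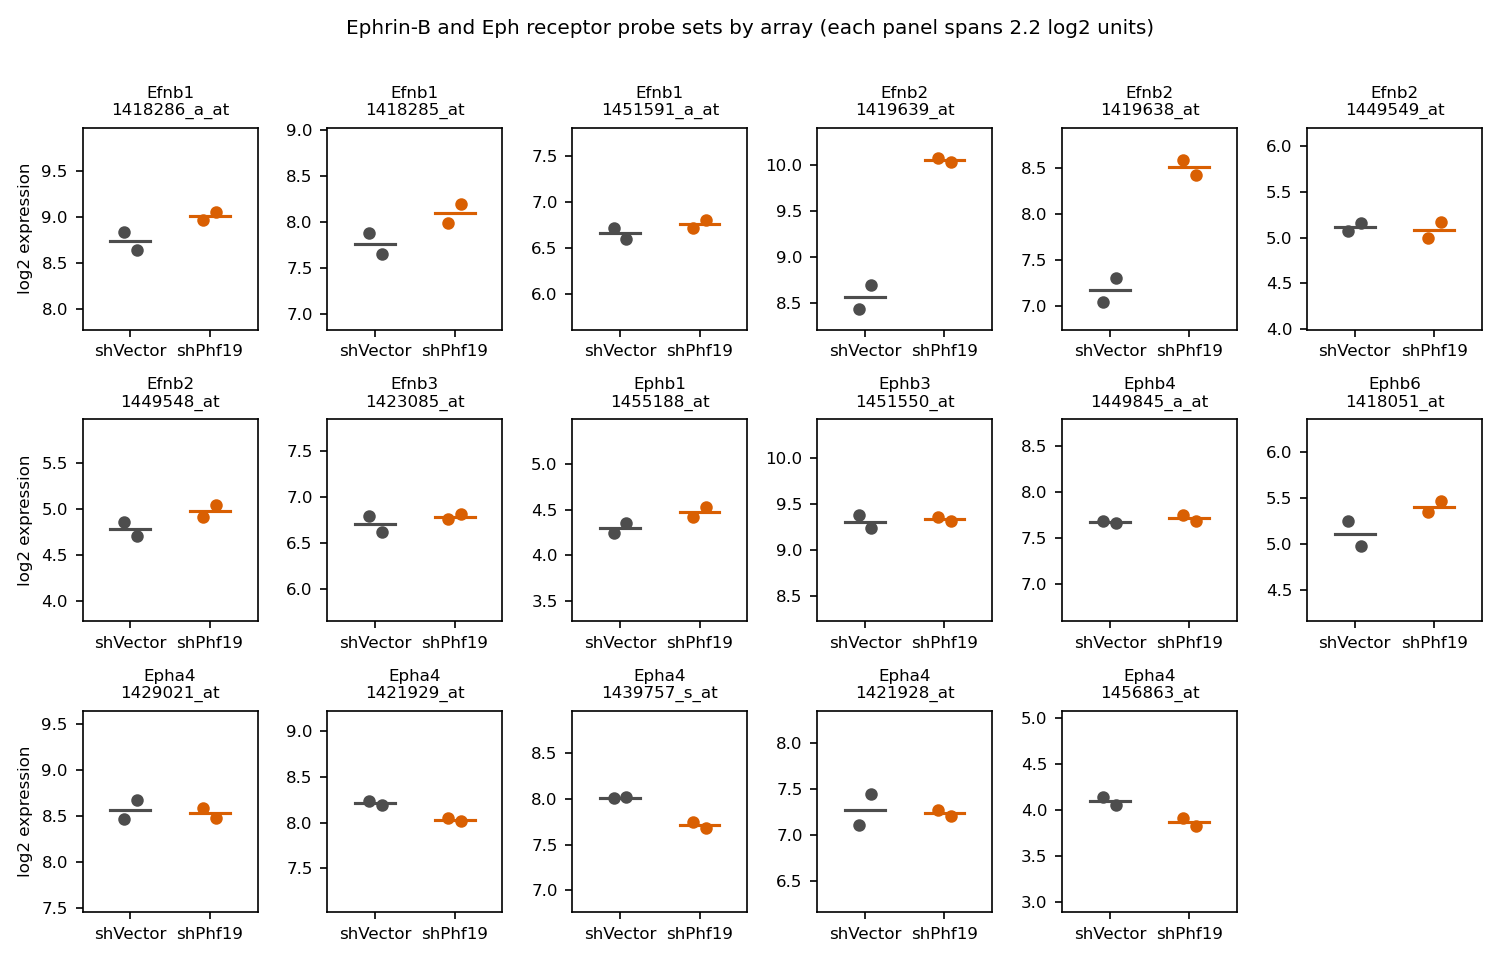
Log2 expression (y axis) of each of the 17 member probe sets in the shVector arrays (grey) and shPhf19 arrays (orange), 1 point per array with a bar at the group mean, replicate 1 on the left of each pair. All panels span the same number of log2 units, and a wide separation of the groups is seen for Efnb2 1419639_at (8.44 and 8.69 against 10.08 and 10.04) and 1419638_at.

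None of the receptor probe sets was called in either direction. Changes of the 9 receptor probe sets ran from -0.30 to 0.29, with 4 above 0 and a median of -0.04. All 4 B-class probe sets lay above 0 and all 5 of 1 gene, Epha4, below it, beside 48.2% of all probe sets above 0. Without shVector replicate 2 the sign changed for Ephb3 (-0.04) and for Epha4 1429021_at (0.07) and 1421928_at (0.13).

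Ephb4, whose protein prefers ephrin-B2 as its ligand, read 7.68 and 7.67 in shVector and 7.75 and 7.68 in shPhf19. The groups touched, with a gap of 0.00073, and the change was 0.04 ± 0.08 (95% interval -0.16 to 0.24). Ephb3, a receptor known from the ordering of cells in the intestinal crypt, read 9.38 and 9.23 in shVector and 9.36 and 9.32 in shPhf19. These values overlapped and the change was 0.03 ± 0.08 (95% interval -0.16 to 0.23). For both receptors the interval leaves room for a change of up to about 1.17-fold to 1.18-fold upwards.

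Ephb1, a receptor of axon guidance at the optic chiasm, read 4.24 and 4.35 in shVector and 4.42 and 4.53 in shPhf19. It was dim on all 4 arrays, and its change of 0.18 ± 0.10 came with a gap of 0.07 between groups, smaller than the 0.11 between the arrays of either group. Ephb6, whose protein has lost kinase activity, read 5.25 and 4.97 in shVector and 5.34 and 5.47 in shPhf19. It was also below the array median throughout. Its change was 0.29 ± 0.12, with a gap of 0.09 between groups against 0.28 between the shVector arrays, and without shVector replicate 2 the change of Ephb6 was 0.15.

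Epha4, a receptor that segments the hindbrain and repels motor axons, had 5 probe sets, all with a change below 0. Probe set 1439757_s_at of Epha4 read 8.003 and 8.014 in shVector and 7.74 and 7.68 in shPhf19. Its groups were separate by 0.26, more than the 0.01 and 0.06 within groups, and its change of -0.30 ± 0.08 corresponds to a 1.23-fold lower signal. It was not called, and the s in its name warns of probes shared with other transcripts.

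Probe set 1421929_at of Epha4 read 8.23 and 8.19 in shVector and 8.05 and 8.02 in shPhf19, a change of -0.18 ± 0.08 with a gap of 0.14. The dim probe set 1456863_at of Epha4 read 4.14 and 4.06 against 3.91 and 3.82, a change of -0.23 ± 0.10. The other Epha4 probe sets overlapped between groups. The brightest, 1429021_at, read 8.46 and 8.67 against 8.59 and 8.48 (change -0.04 ± 0.10), and 1421928_at read 7.11 and 7.45 against 7.27 and 7.20 (change -0.04 ± 0.13). Both shPhf19 arrays lay below both shVector arrays in 3 of the 5 probe sets of Epha4, against 21% of all probe sets. The 5 probe sets measure the same gene and none was called, so nothing is read from this count.

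Over the family, 2 of 17 probe sets were called higher and 0 lower, both of Efnb2. Among all probe sets 0.83% were called higher and 0.582% lower. Since Efnb2 was a reason for choosing the family, nothing is read from that count. Both shPhf19 arrays lay above both shVector arrays in 8 of 17 probe sets and below them in 3, against 19.4% and 21% of all probe sets. Without Efnb2 they lay above in 5 of 13 and below in 3, and nothing is read from these counts either. The median change was 0.08 over the 17 probe sets and 0.04 over the 13 that are not of Efnb2, beside -0.01 over all probe sets. With any 1 of the 4 arrays left out, limma called 0 of 45037 probe sets, with 2539 to 6942 at an unadjusted p under 0.05. In those fits the change of Efnb2 ran from 1.36 to 1.62 for 1419639_at and from 1.21 to 1.46 for 1419638_at. Levels were not ranked between genes, since probe sets differ in how brightly they hybridise.

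**Figure D3:**
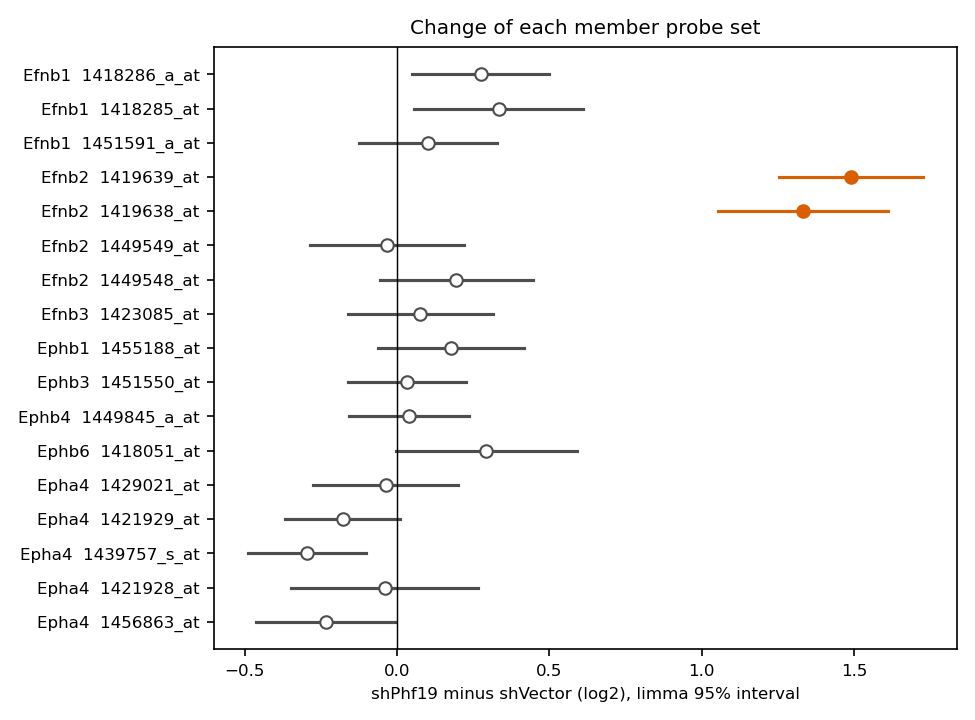
Change of each member probe set (x axis, shPhf19 minus shVector, log2) with limma's 95% interval, not adjusted over probe sets. Filled orange points were called and open grey points were not, and both called points are of Efnb2 (1.49 and 1.33), whereas the other 15 lie between -0.30 and 0.33.

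The genes with the pattern most like Efnb2 1419639_at were found by the Euclidean distance between log2 deviations from each probe set's own mean over the 4 arrays. Among 18185 genes outside the family, each by its representative probe set (of those listed with that gene alone, the one with the highest mean), the nearest was Neurod1, a transcription factor gene of neurons, at a distance of 0.101. It was followed by Car3, a carbonic anhydrase gene (0.144), Dab2, an endocytic adaptor gene of extraembryonic endoderm (0.237), Fam171b (0.244) and Zfp365 (0.258). The second Efnb2 probe set lay at 0.184. With 4 arrays, a small distance reflects mainly a change of like size.

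Neurod1 read 4.22 and 4.58 in shVector and 5.82 and 5.85 in shPhf19, a change of 1.43 ± 0.13. Car3 read 7.84 and 8.05 in shVector and 9.28 and 9.33 in shPhf19, a change of 1.36 ± 0.10. In both, as in Efnb2, shVector replicate 2 lay above replicate 1 and the shPhf19 arrays were closer together than the shVector arrays. Both genes were picked by their distance on these same arrays, so that likeness is no separate result. In Dab2, Fam171b and Zfp365 the shPhf19 arrays were farther apart than the shVector arrays.

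**Figure D4:**
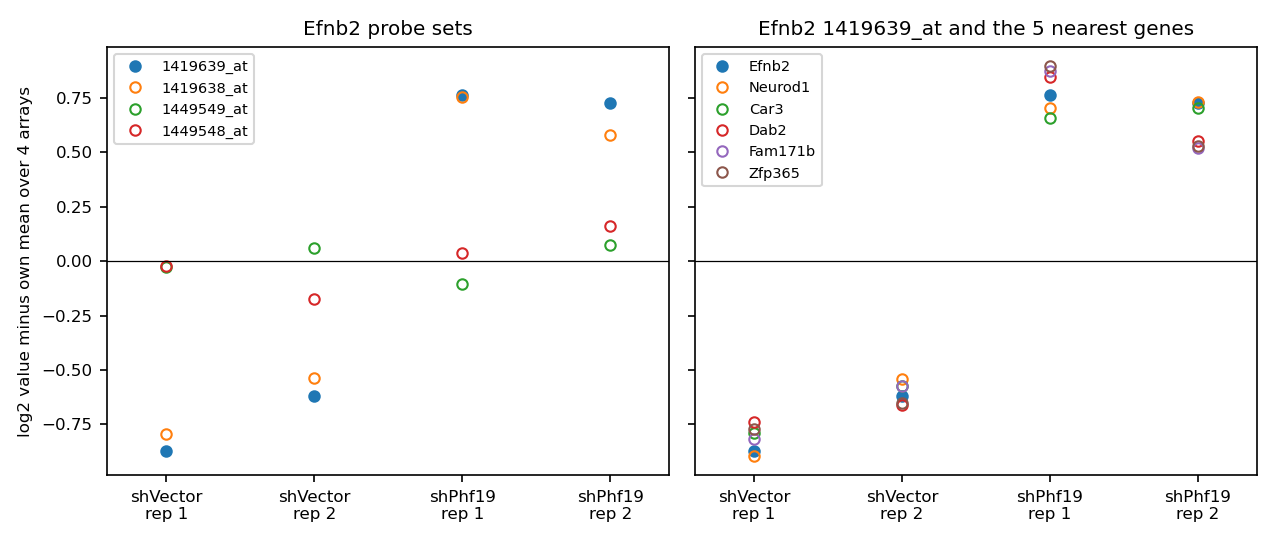
Log2 value minus the probe set's own mean over 4 arrays (y axis) on each array (x axis), for the 4 probe sets of Efnb2 (left) and for Efnb2 1419639_at with its 5 nearest genes (right). The 1419639_at and 1419638_at probe sets move together between groups while 1449549_at and 1449548_at stay near 0, and the nearest genes, led by Neurod1 at a distance of 0.101, follow 1419639_at.

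Among genes of the ephrin pathway and of other guidance systems, few were called, with Grip1 as the largest change of the called genes. Of 96 genes listed in 5 groups, 92 had a representative probe set, and 1 was called higher and 2 lower by limma. Over all 18193 genes, 1.15% were called higher and 0.863% lower. The called genes were Grip1, Aph1a and Nrp2.

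Of 12 genes whose proteins bind the cytoplasmic tail of ephrin-B or act in reverse signalling, 1 rose and none fell, with a median change of -0.04. Grip1, a scaffold with PDZ domains that binds the ephrin-B tail, rose 2.52-fold. It read 5.35 and 5.07 in shVector and 6.62 and 6.46 in shPhf19 with probe set 1435951_at, a change of 1.33 ± 0.13 (SE; limma adjusted p = 0.0103). The groups of Grip1 were separate by 1.11. Its second probe set, 1421350_a_at, read 5.76 and 5.48 against 5.94 and 6.18, a change of 0.44 ± 0.14 that was not called. Grip1 was not called when any 1 array was left out, with changes from 1.19 to 1.48. The other 11 genes of the list were not called, with changes from -0.36 ± 0.07 for the transcription factor gene Stat3 (limma adjusted p = 0.0889) to 0.15 ± 0.09 for the phosphatase gene Ptpn13 (limma adjusted p = 0.577).

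Of 5 measured genes of the ectodomain cleavage list, 1 fell and none rose, with a median of -0.13. The list holds the sheddase gene Adam10 and genes of gamma-secretase, which is not itself a sheddase. Aph1a, a subunit of gamma-secretase, with probe set 1424980_s_at read 10.72 and 10.68 in shVector and 9.70 and 9.98 in shPhf19, a fall of 1.81-fold (change -0.86 ± 0.10, limma adjusted p = 0.0167). This probe set carries the same s in its name as that of Epha4. The other Aph1a probe sets, without that s, changed less and were not called, at -0.34 ± 0.08 and -0.40 ± 0.10. The sheddase gene Adam10 was at -0.14 ± 0.08, and the other gamma-secretase genes were at -0.13 ± 0.05 (Psenen), -0.07 ± 0.09 (Ncstn) and 0.18 ± 0.09 (Psen2).

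Forward signalling partners, which relay Eph receptor activity to the cytoskeleton, showed 0 calls in limma's fit among 23 measured genes. Their changes ran from -0.34 to 0.26 with a median of -0.02. The smallest p belonged to the guanine nucleotide exchange factor genes Arhgef15 (-0.34 ± 0.11, limma adjusted p = 0.257) and Tiam1 (0.18 ± 0.07, limma adjusted p = 0.32). The other probe sets of Arhgef15 lay at -0.19 and -0.05, and those of Tiam1 at -0.07 and 0.29. Ephrin-A ligands and the other EphA receptors also had 0 calls among 13 measured genes, with a median of 0.00. Epha2, an EphA receptor of embryonic stem and epithelial cells, read 9.10 and 8.94 in shVector and 9.42 and 9.45 in shPhf19. Its groups were separate by 0.32, and the change of 0.41 ± 0.08 was not called (limma adjusted p = 0.0857). Epha1 stood at 0.55 ± 0.13 (limma adjusted p = 0.141), while its other probe sets lay at -0.11 and -0.05.

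Of 40 genes of other guidance systems (semaphorins, plexins, neuropilins, Slit, Robo and netrin genes and their receptors), 1 fell and none rose, with a median of -0.02. Nrp2, a co-receptor of semaphorins, read 6.68 and 6.91 in shVector and 5.89 and 5.82 in shPhf19, a fall of 1.92-fold (change -0.94 ± 0.11, limma adjusted p = 0.0173). Its other 3 probe sets were at -0.46 to -0.25 and not called. Neo1, a netrin and repulsive guidance receptor gene, was not called by its representative probe set (-0.58 ± 0.14, limma adjusted p = 0.147), whereas its probe set 1434931_at was called lower (-0.60 ± 0.08, limma adjusted p = 0.0268). Aph1a and Nrp2, like Grip1, were not called when any 1 array was left out, at -0.998 to -0.72 for Aph1a and -1.05 to -0.82 for Nrp2.

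**Figure D5:**
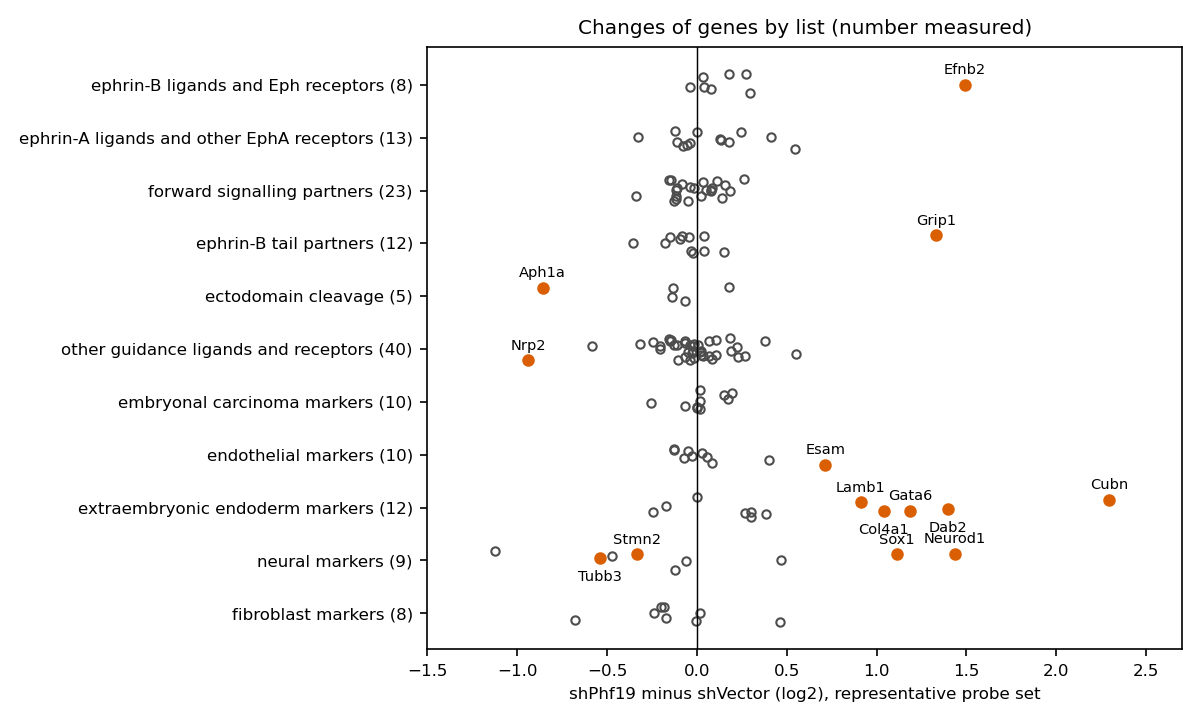
Change of each measured gene by its representative probe set (x axis, shPhf19 minus shVector, log2), 1 row per list with the number of genes measured. Filled orange points with a name were called by limma and open points were not, and Efnb2 and Grip1 stand to the right of their lists, and Aph1a and Nrp2 to the left.

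Markers of cell types that could express these genes moved in part with the groups. Efnb2 and Ephb4 are known markers of arterial and venous endothelium, and of 10 endothelial markers 1 rose and none fell. That gene was Esam, an adhesion molecule, with 8.18 and 8.33 in shVector and 9.03 and 8.91 in shPhf19 (change 0.71 ± 0.09, limma adjusted p = 0.0222). The other 9 were not called, from -0.13 ± 0.10 for Cdh5 to 0.40 ± 0.13 for Tek, with Pecam1 at 0.03 ± 0.10. Pecam1 and Cdh5 lay mostly below the array median, whereas Esam and the receptor gene Kdr lay above it on all 4 arrays. Kdr changed by 0.09 ± 0.10. The mean log2 level of the 10 genes was 5.30 and 5.39 in shVector and 5.45 and 5.42 in shPhf19.

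Of 12 markers of extraembryonic endoderm, a lineage that F9 cells can enter, 5 rose and none fell. They were Cubn (2.296 ± 0.09, limma adjusted p = 0.00147), Dab2 (1.40 ± 0.12, limma adjusted p = 0.00863), Gata6 (1.19 ± 0.13, limma adjusted p = 0.0149), Col4a1 (1.04 ± 0.08, limma adjusted p = 0.00775) and Lamb1 (0.91 ± 0.07, limma adjusted p = 0.00693). Their list's mean log2 level was 6.45 and 6.47 in shVector and 7.09 and 7.10 in shPhf19. The other 7 were not called by their representative probe sets, with Gata4 at 0.38, Lama1 and Foxa2 at 0.30, Sox17 at 0.27, Ttr at -0.00, Afp at -0.17 and Sox7 at -0.24. A second Sox17 probe set was called higher, at 1.41, whereas the other 2 Gata6 probe sets overlapped between groups, at 0.00 and 0.08. The representative probe sets of Cubn and Lamb1 have an s in their names, and each gene had 1 further probe set called higher without it.

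Of 9 neural markers 2 rose, Neurod1 and Sox1 (1.11 ± 0.08, limma adjusted p = 0.00693), and 2 fell, Tubb3 (-0.54 ± 0.08, limma adjusted p = 0.0422) and Stmn2 (-0.34 ± 0.05, limma adjusted p = 0.0393). The second Sox1 probe set lay at -0.15 and was not called. The neural list's mean log2 level was 7.26 and 7.29 in shVector and 7.31 and 7.33 in shPhf19. Of 8 fibroblast markers 0 were called by limma, with Pdgfrb at -0.68 ± 0.14 (limma adjusted p = 0.0923) and Thy1 at 0.46 ± 0.12 (limma adjusted p = 0.169). The second Pdgfrb probe set lay at -0.11. The part of these cell states in the rise of Efnb2 was not tested.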

How the data were processed

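Total RNA of F9 cells was measured on Affymetrix Mouse Genome 430 2.0 arrays, 2 per group, labelled with biotin and extracted with a Qiagen RNeasy kit, per the labels' protocols. The deposited table holds 1 value per probe set and array, taken as log2 because values ran from 2.31 to 14.5 over the probe sets tested, more than natural or decimal logs of scanner signals allow. The arrays were taken as normalized before deposit, since their medians were nearly the same (5.75 to 5.76). No source used here gives the software, probe summary or background correction. Such summaries can compress changes of dim probe sets.

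The 64 Affymetrix control probe sets were left out and 45037 were tested without a filter. The platform annotation listed 34945 with 1 gene, 932 with several (not used) and 9160 with none; 34741 gene numbers matched the RefSeq table (GRCm38.p6), changing 0 symbols. Groups were taken from the sample titles and compared in R 4.3.3 by limma 3.58.1 (linear model with moderated variance following an intensity trend; two-sided; Benjamini-Hochberg over 45037 probe sets; threshold 0.05). The SE is limma's moderated standard error. The fit has 2 residual degrees of freedom, a median of 6.51 after moderation, and the number of arrays limits its precision. Genes outside the family were represented by the brightest on average of the probe sets listed with that gene alone. Named were every member, Phf19 and the 5 genes nearest to the member probe set with the largest change. From each list, up to 4 called genes per direction were named, or the 2 with the smallest p where none was called. Other list genes given with values were added after their values were seen. They were Neo1, Lamb1, Stat3, Ptpn13, Adam10, Psenen, Ncstn, Psen2, Pecam1, Cdh5, Tek, Kdr, Gata4, Lama1, Foxa2, Sox17, Ttr, Afp, Sox7 and Pax6. The members and lists were chosen with earlier results of these data known. The test was checked on simulated data with independent errors drawn from the spread that limma fitted. That check bears on the code and cannot show whether the model holds for these arrays. Alternatives were quantile normalization, median centring, filters on dim probe sets, other variance models, a replicate block, leaving out each array and averaging probe sets.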

Additional observations from a re-analysis of the deposited data

How the results depend on the processing

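The calls of Grip1, Aph1a and Nrp2 held under quantile normalization, median centring, leaving out the lowest 25% or 50% of probe sets, no intensity trend and robust variance. The family's counts of 2 higher and 0 lower were also the same there, which is no support for Efnb2, since its rise on these arrays chose the family. Without an intensity trend, the probe sets called over the whole table went from 374 to 229 higher and from 262 to 151 lower. With any 1 array left out, all of these counts were 0, and limma then takes its spread from the other group alone. The replicate numbers do not pair the arrays by any label, and deviations of same-numbered arrays correlated at -0.197 over probe sets. With a replicate block, 0 probe sets were called higher and 0 lower in the table, the family (from 2 higher) and the lists (from 1 higher and 2 lower), with 3890 at an unadjusted p under 0.05. A block with crossed numbers, added after seeing the data, called 337 higher and 259 lower, including the 2 of Efnb2 and 1 higher and 3 lower in the lists. With probe sets of a gene averaged and the fit run over 18193 genes, 2 list genes were called higher, Grip1 and Epha2, and 2 lower, Aph1a and Nrp2. Epha2 has 1 probe set, so averaging left its values as they were. Its call came with the fit and adjustment over genes instead of probe sets. Of the 15 uncalled member changes, 5 changed sign without shVector replicate 2, 1 without shPhf19 replicate 1, 1 without shPhf19 replicate 2 and 0 without shVector replicate 1. No detection calls were available, so the 5 member probe sets below the array median on all 4 arrays may measure background.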

Other observations

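The probe sets of Efnb2 were split, with 2 called and 2 dim ones not, and such splits were counted over all called genes. Of 367 genes called by their representative probe set, 225 had further probe sets. In 161 of them at least 1 further probe set had a 95% interval that excluded the called change, and in 74 at least 1 further probe set was called in the same direction, as for Efnb2. Dab2 is an example: its brightest probe set changed by 1.40 ± 0.12, and its others by 0.09 to 0.44. Representatives were chosen by brightness, and neither the position of probe sets on transcripts nor background was analysed here.

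The neural marker Pax6 was at -1.12 ± 0.22 by its representative probe set without a call (limma adjusted p = 0.0805), below 0 where Sox1 and Neurod1 rose. The arrays of this probe set were 0.56 apart within shVector and 0.47 within shPhf19. Its other 4 probe sets changed less, from -0.40 to -0.03, and were not called. Pax6 was named after its values were seen.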
